A study of Mus musculus with 10 samples.

Results

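The 8 genes described here, *Havcr1*, *Lcn2*, *Vcam1*, *Krt20*, *Sox9*, *Cdh6*, *Spp1* and *Clu*, are markers of injured kidney tubule and of tubule cells that do not complete repair. They were taken as a named list, gene by gene, from the 21792 genes with a value in the kidney cortex of 10 mice, and all 8 were among the 17129 genes that passed a filter on low values (a mean of at least 0.1 FPKM) and were tested. FPKM scales the fragments of a gene to its length in kilobases and to the depth of the library, so that levels can be set side by side between genes. The mice were male, wild-type (WT) C57BL/6 animals, aged 8 weeks at the start of the model. The 4 sham mice received PBS, and the 6 mice with aristolochic acid nephropathy (AAN) received aristolochic acid in PBS, once, intraperitoneally, at 5 mg/kg. Cortex was taken at day 28 in both groups, each library is from 1 mouse, and mice are called here by the tags of their labels.

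Aristolochic acid is a plant toxin taken up by cells of the proximal tubule, where it damages DNA and kills part of the epithelium. Surviving tubule cells lose mature transport functions, re-express genes of the developing kidney and divide to refill the tubule. Cells that stay in this state keep adhesion molecules and inflammatory signals switched on and are known as failed repair cells. *Havcr1* (kidney injury molecule 1) and *Lcn2* (neutrophil gelatinase-associated lipocalin) are the best known urinary markers of this kind of injury, and *Vcam1* is the usual marker of failed repair cells of the proximal tubule.

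Depth was 15.8 to 17.5 M fragments for sham libraries and 13.4 to 16.5 M for AAN libraries, with the lowest value in AAN mouse B639. *Slc34a1*, the sodium phosphate transporter of the proximal tubule, had 1231 to 2754 FPKM over the sham mice. Over the AAN mice it had 390 to 1487 FPKM. This shows proximal tubule in every library but cannot tell cortex from whole kidney. AAN mouse B614 stood apart. Its summed FPKM over 8 proximal tubule markers was 2061, against 540 to 904 in the other 5 AAN mice, and over 8 distal nephron markers it was 3028 against 484 to 883. In sham mice these sums were 1751 to 3935 and 850 to 2236. The proximal tubule sum of B614 thus lay within the sham range, and its distal nephron sum lay above it. Results are therefore also given without this mouse. The labels name no batch, and since no tag is shared between the groups, an unrecorded batch that follows the groups cannot be told apart from AAN.

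All 8 genes were higher in AAN mice, at an adjusted p of at most 0.05 and at least a 2-fold change. *Havcr1* was under 0.1 FPKM in every sham mouse and passed the filter only through AAN mice. The count of 8 has to be read beside the background. Of the 17129 genes tested, 35.8% passed the same limits upward and 3.43% passed them downward. The lowest AAN mouse lay above the highest sham mouse for 8 of the 8 genes, and for 40.3% of all genes tested. The median log2 fold change was 4.78 over the 8 genes and 0.75 over all genes, of which 82.3% were above 0. By log2 fold change the 8 genes stood between the percentile of 90.8 (*Clu*) and that of 99.98 (*Havcr1*) of all genes tested. Rescaling each mouse by the median of ratios moved the median of all genes to 0.06, with 3261 genes called higher and 1801 lower in place of 6126 and 588. Quantile normalization moved it to -0.10, with 2537 called higher and 2026 lower. All 8 genes stayed called higher under both, and stood above the median of all genes by 1.67 (*Clu*) to 8.78 (*Havcr1*) after the median of ratios and by 2.44 to 8.87 after quantile normalization, against 1.75 to 8.49 without rescaling. Whole cortex was sequenced, so more cells of a type and more RNA per cell cannot be told apart in any value below.

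**Figure D1:**
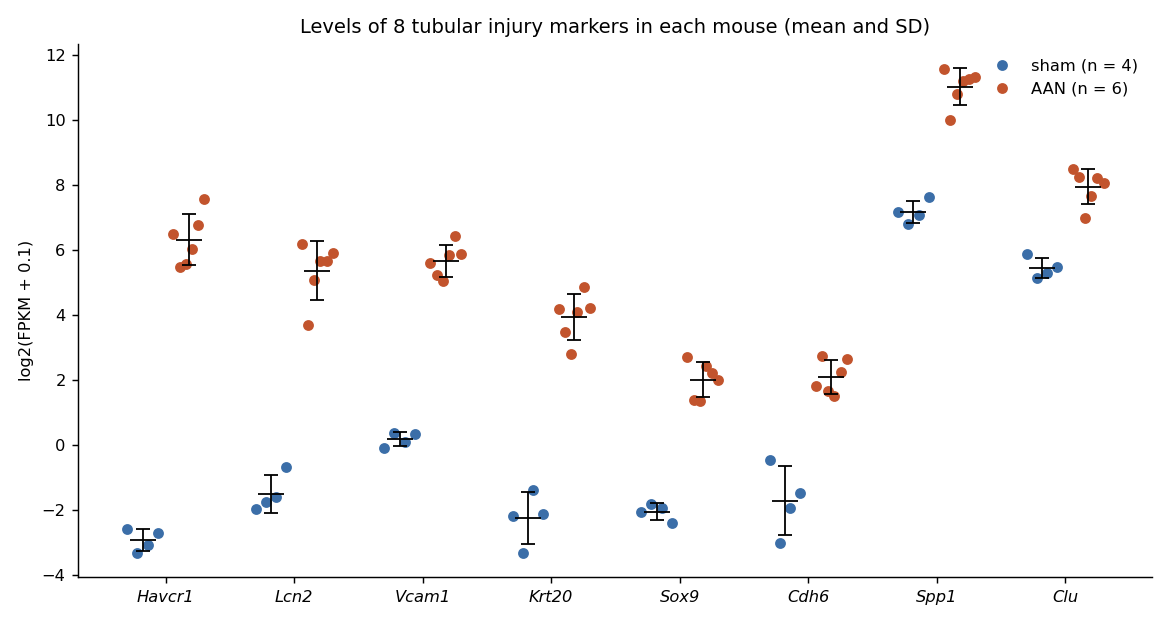
Level of each of the 8 genes in every mouse on the log2(FPKM + 0.1) scale. Points are mice, in blue for the 4 sham and in orange for the 6 AAN mice, and bars give the mean and SD. For each gene the orange points lie above all blue points, with the narrowest gap for *Clu* and the widest for *Havcr1*.

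The sequence before the transcription start was available for 5 of the 8 genes in RefSeq (build GRCm38.p6), namely *Havcr1*, *Lcn2*, *Spp1*, *Krt20* and *Cdh6*. It is shown for 4 of them, each called higher in AAN. Each line holds the 250 bases before a start, read 5′ to 3′ on the strand of the gene. Capitals mark the matches to any of 6 motifs, searched on both strands: AP-1 (TGANTCA), NF-kB (GGANTTTCC), STAT (TTCNNNGAA), C/EBP (TTGCNNAA), TEAD (GGAATG) and the TATA box (TATAAA). The stretches lie at chr11:99438154-99438403 on the minus strand for *Krt20*, chr5:104434861-104435110 on the plus strand for *Spp1*, chr11:46750261-46750510 on the plus strand for *Havcr1* and chr15:13173676-13173925 on the minus strand for *Cdh6*.
Krt20: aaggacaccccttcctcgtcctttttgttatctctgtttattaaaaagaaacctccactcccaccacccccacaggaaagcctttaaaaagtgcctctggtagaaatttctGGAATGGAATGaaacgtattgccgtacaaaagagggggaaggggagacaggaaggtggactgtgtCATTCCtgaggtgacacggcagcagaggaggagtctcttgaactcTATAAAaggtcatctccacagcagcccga
Spp1: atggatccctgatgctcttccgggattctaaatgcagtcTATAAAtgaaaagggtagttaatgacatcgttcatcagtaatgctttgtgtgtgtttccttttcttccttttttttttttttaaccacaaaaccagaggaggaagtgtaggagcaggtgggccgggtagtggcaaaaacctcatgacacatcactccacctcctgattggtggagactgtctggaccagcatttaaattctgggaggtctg
Havcr1: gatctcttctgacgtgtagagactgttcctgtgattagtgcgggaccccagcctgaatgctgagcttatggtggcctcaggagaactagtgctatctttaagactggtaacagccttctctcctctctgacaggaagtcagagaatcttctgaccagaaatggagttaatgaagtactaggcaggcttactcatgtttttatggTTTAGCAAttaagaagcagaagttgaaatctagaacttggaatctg
Cdh6: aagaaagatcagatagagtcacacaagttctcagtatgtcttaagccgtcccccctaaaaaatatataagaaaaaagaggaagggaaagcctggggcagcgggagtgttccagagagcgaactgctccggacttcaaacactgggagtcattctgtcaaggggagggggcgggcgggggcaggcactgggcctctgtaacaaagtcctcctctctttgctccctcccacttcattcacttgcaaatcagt
The *Krt20* stretch held 3 TEAD matches, of which 2 share a base, between 139 and 69 bases before the start, and a TATA match at 29 to 24 bases. The *Spp1* stretch shown held a TATA match at 211 to 206 bases before the start. The *Havcr1* stretch shown held a C/EBP match at 46 to 39 bases. Of the stretches not shown, that of *Lcn2* held a C/EBP match at 216 to 209 bases before the start, and that of another *Spp1* start held a C/EBP match at 156 to 149 bases. The stretches before other *Havcr1* starts, at chr11:46739973-46740222 and chr11:46750918-46751167 and not shown, held none of the 6 motifs. In the *Cdh6* stretch none of the 6 motifs was found. Among all 32851 RefSeq stretches of this length, 12.6% held TEAD, 12.4% TATA and 9.56% C/EBP letters. No AP-1, NF-kB or STAT letters were found in any of the stretches of the 5 genes, and these were found in 6.75%, 1.07% and 7.02% of all stretches. The matches are descriptions of letters and not of bound sites.

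*Lcn2* encodes a secreted lipocalin that binds iron-carrying siderophores. Its gene (ENSMUSG00000026822) lies at chr2:32384633-32388252 on the minus strand, as do all gene positions here in GENCODE release 21 (GRCm38). Its FPKM was 0.153, 0.194, 0.225 and 0.523 in sham mice B607, B634, B636 and H249. In AAN mice it ran from 12.8 in B614 to 71.9 in A483, with a median of 50.3. Every AAN mouse was thus at least 24.4 times above the highest sham mouse. Means were 0.274 ± 0.169 FPKM in sham mice (SD, n = 4) and 46.4 ± 20.8 in AAN mice (SD, n = 6), a ratio of 170. The log2 fold change on the log2(FPKM + 0.1) scale was 6.87 (SE 0.44, limma, adjusted p = 2.50e-07). Among the 8 genes, the spread of *Lcn2* over AAN mice was the widest by highest over lowest value, at 5.64, and without B614 the log2 fold change was 7.21.

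Neutrophils also hold *Lcn2*. Of 6 neutrophil markers, 4 were tested, and these had a summed 0.228 to 2.11 FPKM in sham mice against 2.69 to 15.9 in AAN mice. All 4 were called higher, beside 35.8% of all genes tested, with *Csf3r*, the receptor for granulocyte colony stimulating factor, at a log2 fold change of 3.93. *Cxcr2*, at most 0.0576 FPKM in sham mice, passed the filter only through AAN mice. Only for *Csf3r* did the groups not overlap, and the other 3 had log2 fold changes of 1.09 to 2.27. A count of 2 remained with a pseudocount of 1, a filter at 1 FPKM, the median of ratios or sham mouse B607 left out, and a count of 1 after quantile normalization. *Ly6g*, the defining surface marker of mouse neutrophils, was at 0 in 8 of the 10 mice and at most 0.143 FPKM in the other two. The part of these cells in the *Lcn2* result was not tested.

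*Spp1* encodes osteopontin, a secreted phosphoprotein that binds integrins and CD44 and is made by tubule cells and by macrophages. It was the most abundant of the 8 genes in both groups. The gene (ENSMUSG00000029304) lies at chr5:104435118-104441050 on the plus strand, downstream of the TATA-bearing stretch shown above. Sham mice B607, B634, B636 and H249 had 144, 109, 134 and 196 FPKM. AAN mice ran from 1007 in B614 to 3020 in A483, with a median of 2387. The lowest AAN mouse stood 5.15 times above the highest sham mouse. Means were 146 ± 36.4 (SD, n = 4) and 2188 ± 705 FPKM (SD, n = 6), 15.0 times higher in AAN. On the log2 scale this was a fold change of 3.86 (SE 0.30, limma, adjusted p = 7.72e-07). An overlapping gene on the same strand, *Gm42793*, had 0.242 to 0.679 FPKM in the sham group and 4.99 to 13.7 in the AAN group, and how fragments were divided between the pair is not given in the sources used here.

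*Clu* encodes clusterin, a secreted chaperone that binds misfolded proteins and cell debris. The gene (ENSMUSG00000022037) lies at chr14:65968483-65981547 on the plus strand. It had 57.9, 35.0, 39.0 and 43.6 FPKM in sham mice B607, B634, B636 and H249. In AAN mice the range was from 126 in B630 to 355 in A483, with a median of 280. No other of the 8 genes came as close to an overlap, with the lowest AAN mouse 2.17 times above the highest sham mouse. Means were 43.9 ± 10.002 (SD, n = 4) and 257 ± 82.1 FPKM (SD, n = 6), a ratio of 5.87. The log2 fold change of 2.50 (SE 0.28, limma, adjusted p = 1.31e-05) was the smallest among the 8 genes, and it was 1.74 after the median of ratios.

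*Havcr1* encodes a transmembrane receptor for phosphatidylserine, with which injured tubule cells take up dying neighbours. Its gene (ENSMUSG00000040405) lies at chr11:46735080-46779578 on the plus strand, and the stretch with the C/EBP match shown above precedes an internal start of the gene. In sham mice B607, B634, B636 and H249 it had 0.0654, 0, 0.0174 and 0.0521 FPKM. In AAN mice it had 89.4 in A483, 44.2 in B614, 46.8 in B630, 65.2 in B639, 108 in B642 and 188 in B666. The gene has 4 annotated transcripts. Over its whole exonic length of 2311 bases the sham values would amount to 2.64, 0, 0.661 and 1.98 fragments. As fragments are whole, 0.661 is too low, so this reckoning understates the fragments and does not give their number. AAN mice, by contrast, had 1603 to 7073 fragments each by the same reckoning. Means were 0.0337 ± 0.0302 (SD, n = 4) and 90.2 ± 53.8 FPKM (SD, n = 6). Their ratio was 2676, and it rests on sham values at or near 0. The log2 fold change was 9.24 (SE 0.37, limma, adjusted p = 7.03e-08), the fifth largest of all genes tested. This value depends on the pseudocount and was 6.28 with a pseudocount of 1 and 11.2 with 0.01. By level, *Havcr1* moved from the percentile of 5.61 among tested genes in sham mice to that of 97.6 in AAN mice.

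*Vcam1* encodes an adhesion molecule that binds integrins with an alpha 4 subunit on leukocytes. The gene (ENSMUSG00000027962) lies at chr3:116109949-116129688 on the minus strand. Sham mice B607, B634, B636 and H249 had 0.828, 1.18, 0.963 and 1.16 FPKM, a narrow range. AAN mice ran from 32.5 in B630 to 85.6 in B642 with a median of 52.3. Means were 1.03 ± 0.166 (SD, n = 4) and 53.0 ± 18.9 FPKM (SD, n = 6), which is 51.4 times higher in AAN. Its log2 fold change of 5.49 (SE 0.25, limma, adjusted p = 8.29e-08) had the smallest standard error among the 8 genes. An antisense gene over *Vcam1*, *Gm43109*, reached at most 0.161 FPKM in any mouse.

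*Cdh6* encodes a cadherin of the forming and the adult proximal tubule. The gene (ENSMUSG00000039385) lies at chr15:13028701-13173675 on the minus strand, and the stretch shown above without any of the motifs ends right before its first base. Its sham values of 0.629, 0.0240, 0.162 and 0.254 FPKM in B607, B634, B636 and H249 were scattered, with B634 close to the floor of 3 fragments at 0.0210 FPKM. AAN mice ran from 2.72 in B639 to 6.49 in B614 with a median of 4.02, so that the mouse lowest in *Lcn2* and *Spp1* was highest in *Cdh6*. Even so, the groups did not overlap. Means were 0.267 ± 0.259 (SD, n = 4) and 4.40 ± 1.61 FPKM (SD, n = 6), a ratio of 16.5. In log2 terms the fold change was 3.82 (SE 0.43, limma, adjusted p = 1.50e-05), and 3.39 without sham mouse B634.

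*Krt20* encodes a type I keratin, an intermediate filament protein that healthy tubule hardly makes. The gene (ENSMUSG00000035775) has 1 annotated transcript at chr11:99428403-99438150 on the minus strand, just after the stretch with the TEAD and TATA matches. With 1 transcript the values could be turned back into whole fragments. Sham mice B607, B634, B636 and H249 had 0.119, 0, 0.284 and 0.126 FPKM, or 4, 0, 9 and 4 fragments. AAN mice ran from 6.76 FPKM in B630, or 202 fragments, to 28.8 FPKM in B642, or 876 fragments, with a median of 17.3 FPKM. The 0 in B634 allows up to 0.0983 FPKM at 3 fragments, a floor that covers counting error only. Means were 0.132 ± 0.116 (SD, n = 4) and 16.6 ± 7.501 FPKM (SD, n = 6), a ratio of 126. The log2 fold change was 6.19 (SE 0.42, limma, adjusted p = 3.54e-07) and was 3.84 with a pseudocount of 1.

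*Sox9* encodes a transcription factor of kidney development that tubule cells switch on again during repair. The gene (ENSMUSG00000000567) also has 1 annotated transcript, at chr11:112782224-112787760 on the plus strand. Sham mice B607, B634, B636 and H249 had 0.138, 0.183, 0.162 and 0.0880 FPKM, or 10, 12, 11 and 6 fragments. AAN mice ran from 2.45 FPKM in B630 to 6.34 in A483 with a median of 4.19, or 157 to 432 fragments. The lowest AAN mouse was 13.4 times above the highest sham mouse. Means were 0.143 ± 0.0408 (SD, n = 4) and 4.15 ± 1.54 FPKM (SD, n = 6), 29.1 times higher in AAN. The log2 fold change of 4.06 (SE 0.28, limma, adjusted p = 4.24e-07) fell to 2.12 with a pseudocount of 1, as the sham level lay near the pseudocount used.

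**Figure D2:**
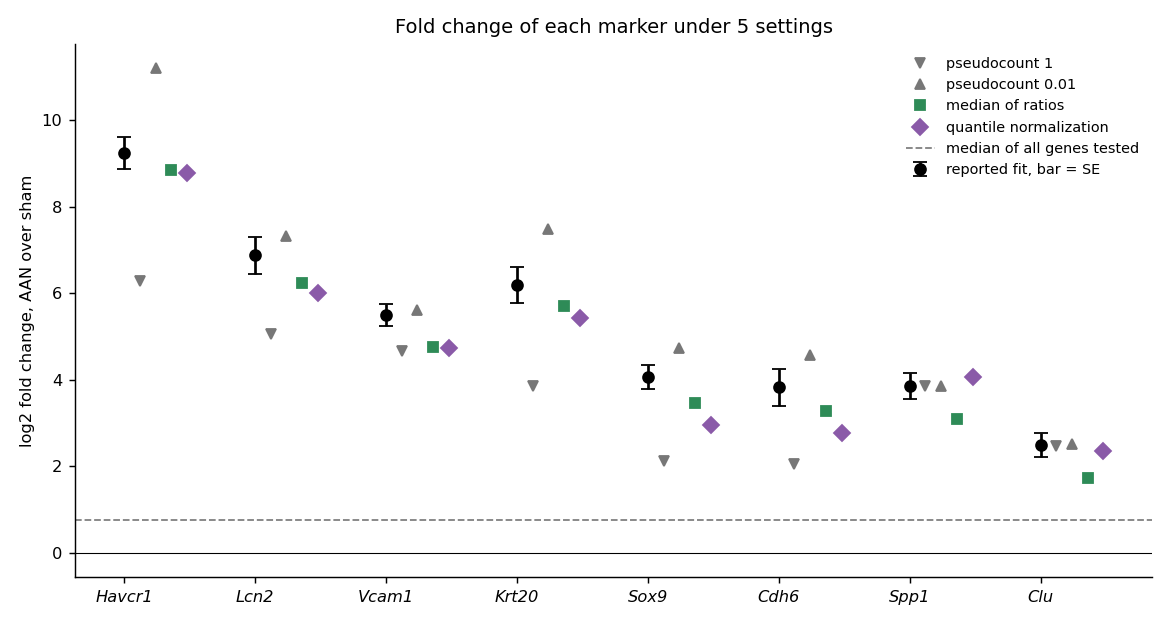
Log2 fold change of each gene, AAN over sham. The black point with its SE is the reported fit, grey triangles use pseudocounts of 1 and 0.01, squares the median of ratios and diamonds quantile normalization. The dashed line is the median of all genes tested in the reported fit, 0.75, and every symbol lies above it.

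The 8 genes did not keep one order of levels between the groups. In sham mice *Spp1* was followed by *Clu* and *Vcam1*, each in 4 of 4 mice and with no overlap. The next 5 by mean level, *Lcn2*, *Cdh6*, *Sox9*, *Krt20* and *Havcr1*, had ranges that overlapped from each gene to the next and cannot be ordered beyond their spread. In AAN mice the order by mean was *Spp1*, *Clu*, *Havcr1*, *Vcam1*, *Lcn2*, *Krt20*, *Cdh6* and *Sox9*. *Havcr1*, among the 5 lowest in sham mice, ranked 3 of 8 in AAN mice by mean, above *Vcam1* in 6 of 6 mice. *Vcam1* and *Lcn2* could not be ordered, with 3 of 6 mice each way, and *Cdh6* exceeded *Sox9* in 4 of 6.

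AAN mice differed among themselves, with a coefficient of variation over the 6 mice from 31.9% for *Clu* to 59.6% for *Havcr1*. Mouse A483 had the highest value of 4 genes (*Lcn2*, *Sox9*, *Spp1* and *Clu*), B642 of 2 (*Vcam1* and *Krt20*), B666 of *Havcr1* and B614 of *Cdh6*. B630 had the lowest value of 4 genes (*Vcam1*, *Krt20*, *Sox9* and *Clu*), B614 of 3 (*Havcr1*, *Lcn2* and *Spp1*) and B639 of *Cdh6*. The 6 AAN mice stood in the same order for *Lcn2* and *Spp1*, although *Lcn2* was nearly equal in B639 (50.337 FPKM) and B642 (50.347 FPKM). For *Vcam1* and *Krt20*, and for *Sox9* and *Clu*, 4 of the 6 mice held the same rank. On the log2 scale B614, the AAN mouse highest in proximal tubule and distal nephron markers, deviated from the AAN mean by -1.67 for *Lcn2*, -1.04 for *Spp1* and 0.63 for *Cdh6*. Its macrophage markers deviated by -0.91. The part of these markers in the mouse's values was not tested. Without B614 the log2 fold changes of the 8 genes were 9.41 for *Havcr1*, 7.21 for *Lcn2*, 5.58 for *Vcam1*, 6.28 for *Krt20*, 4.19 for *Sox9*, 3.69 for *Cdh6*, 4.07 for *Spp1* and 2.44 for *Clu*.

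**Figure D3:**
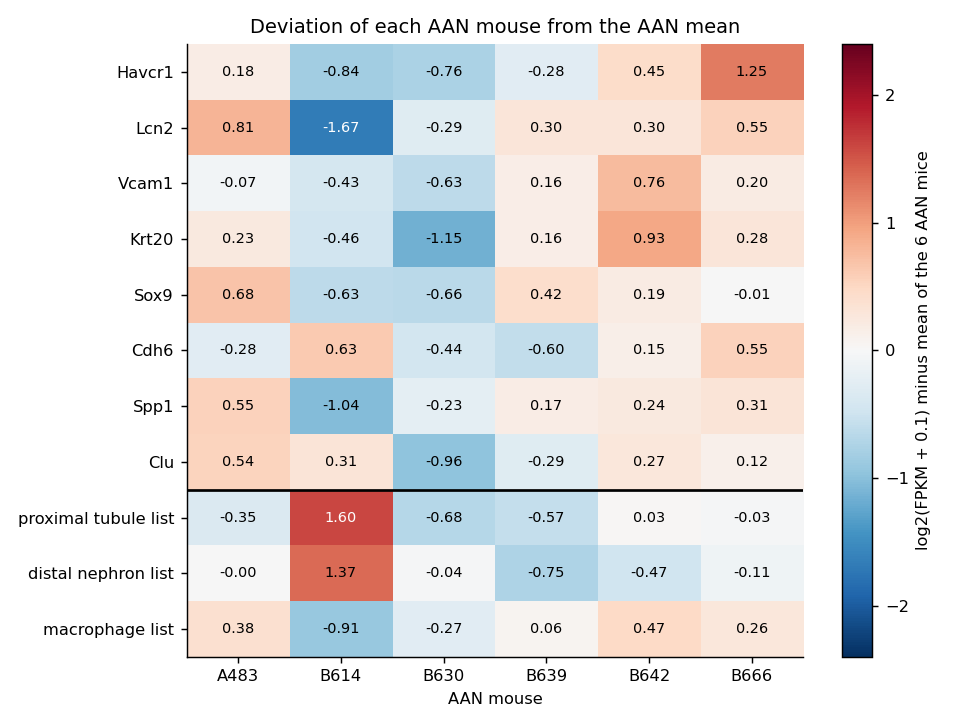
Deviation of each AAN mouse (columns) from the mean of the 6 AAN mice on the log2(FPKM + 0.1) scale, for the 8 genes and, under the line, for the mean of 3 marker lists (rows). Red is above and blue below the mean. B614 is low for *Lcn2* (-1.67) and high for the proximal tubule list (1.60), and B630 is below the mean for all 8 genes.

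Each gene was also set against a list from the same mouse that stands for its tissue, its family or another cell type that can hold it, as log2(FPKM + 0.1) of the gene minus the mean of the list. This takes out a shift that gene and list share in a mouse, but not where the gene lies near the pseudocount. There were 8 such differences, and when tested by exact permutation (two-sided, 210 assignments of the mice) each gave p = 0.00476, the smallest this design allows, and 0.00476 after Benjamini-Hochberg adjustment over the 8. The groups did not overlap in any of the differences. They also did not overlap for any of the 8 genes taken alone, and genes and lists were chosen with earlier results of these data known. These p-values therefore describe the separation of the groups and add no independent support. *Havcr1* rose by 10.9 (SE 0.53) against the proximal tubule list, from a mean of -9.58 in sham mice to 1.32 in AAN mice. Part of this is the fall of the list itself, from a mean of 6.65 to 4.99. Every sham value of *Havcr1* was below the pseudocount, so its sham differences largely mirror the list. B614 had the only AAN value below 0, at -1.12. *Lcn2* rose by 7.15 (SE 0.73) and *Clu* by 2.78 (SE 0.35) against the distal nephron list. *Vcam1* rose by 5.07 (SE 0.35) against 7 endothelial markers, the other main place of this adhesion molecule. Against genes of their own kind, *Krt20* rose by 3.68 (SE 0.43) over the keratins *Krt8* and *Krt18*, and *Cdh6* by 2.90 (SE 0.32) over *Cdh1*, *Cdh2* and *Cdh16*. With a pseudocount of 1 these differences were 1.40 for *Krt20*, 1.51 for *Cdh6* and 7.90 for *Havcr1*.

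Only the difference of *Spp1* fell, and only *Spp1* was set against a list that rose by more than the gene itself. The mean of that list was 1.85 in sham mice and 6.43 in AAN mice on the log2 scale. Set against these 8 macrophage markers in the same mouse, *Spp1* was at 5.31 in sham mice and at 4.59 in AAN mice. All 6 AAN mice shared this fall of 0.72 (SE 0.12), at 4.36 to 4.75 against 5.04 to 5.51. The summed macrophage markers were at 39.0 to 63.2 FPKM in sham mice and at 643 to 2229 FPKM over the AAN mice. All 8 of them were called higher, beside 35.8% of all genes tested, and none of the 8 was at 0 in any mouse. Their median log2 fold change was 4.81 beside the 3.86 of *Spp1*, although *Csf1r* at 3.54 and *Adgre1* at 3.81 lay below *Spp1*. *Sox9* at 4.06, *Cdh6* at 3.82 and *Clu* at 2.50 were also below that median, and *Havcr1*, *Lcn2*, *Vcam1* and *Krt20* were above it. None of these was set against this list, so the direction does not set *Spp1* apart from the other genes. The result depends on the processing. With a pseudocount of 1 the difference was -0.28, and after quantile normalization it was 0.042 (exact permutation, adjusted p = 0.848). The part of macrophages in the *Spp1* result was not tested.

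**Figure D4:**
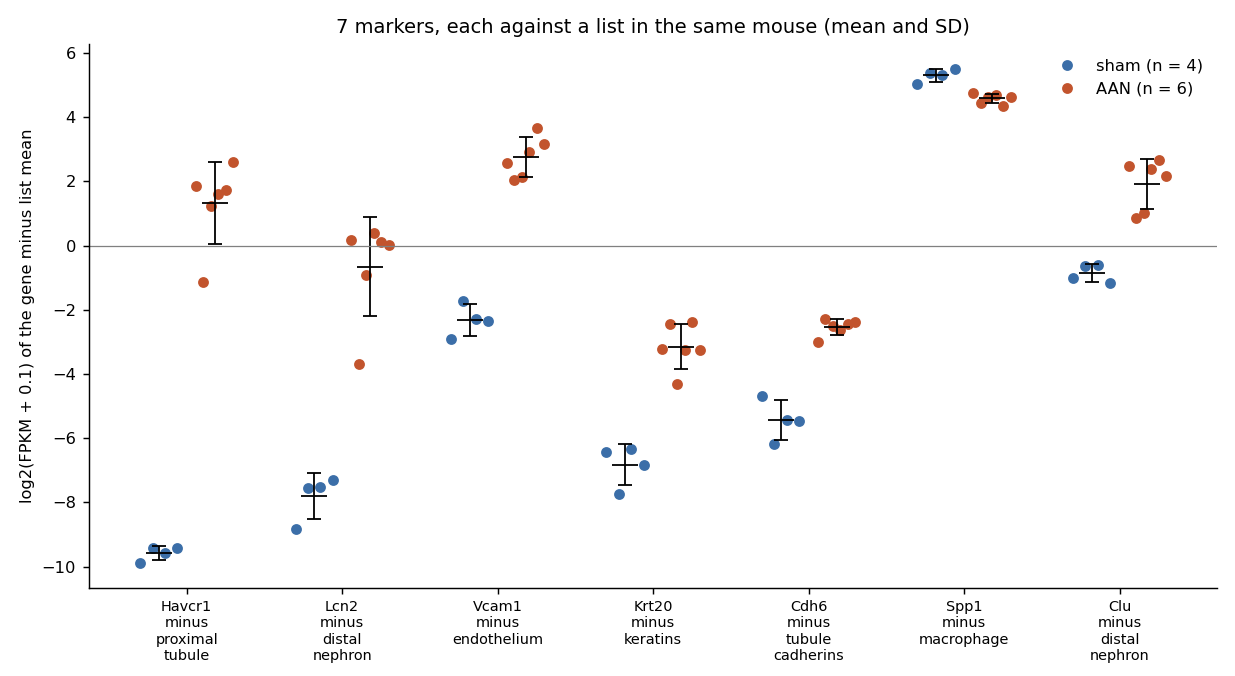
Each gene minus the mean of a list in the same mouse, on the log2(FPKM + 0.1) scale, with points for the 4 sham (blue) and 6 AAN (orange) mice and bars for mean and SD. AAN mice lie above sham mice in 6 of the 7 differences drawn and below them for *Spp1* minus macrophage.

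The lists themselves show what else moved. Their counts stand beside a background of 35.8% of all genes tested called higher and 3.43% called lower. Of 8 proximal tubule markers, 5 were called lower and none higher, with a median log2 fold change of -1.42. *Slc22a6*, the organic anion transporter OAT1, fell most, by 4.28 on the log2 scale. Of 8 distal nephron markers none was called in either direction in the limma fit (median -0.19), although 2 were called lower after the median of ratios and 1 without B614. None of 7 endothelial markers was called at the 2-fold limit, and 3 had an adjusted p within the limit on p with a rise of less than 2-fold. After either rescaling 1 of the 7, *Kdr*, was called lower. Of 5 podocyte markers 1, *Synpo*, was called higher, and it was not called in 5 of the alternatives. All 7 fibroblast markers were called higher, with a median of 2.78. Their summed values were 16.2 to 22.2 FPKM in sham mice against 116 to 263 in AAN mice. *Lum*, with a sham mean of 0.0518 FPKM, passed the filter only through AAN mice. Macrophage and fibroblast markers therefore moved with the 8 genes, and the part of either cell type in the results was not tested.

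Among genes of the same families, both keratins of simple epithelium were called higher, beside 35.8% of all genes. *Krt8* was at a log2 fold change of 1.87 and *Krt18* at 3.14. Among the 3 cadherins of the tubule *Cdh2* rose by 2.10 (SE 0.31, limma, adjusted p = 0.000136), a call that was lost after quantile normalization, where it was 0.87. *Cdh1* was at 0.72 and the kidney-specific *Cdh16* at -0.06, neither past both limits. The transcription factor *Hnf4a*, which maintains the proximal tubule program, fell by 1.15 on the log2 scale (SE 0.27, limma, adjusted p = 0.00318). Without sham mouse B607 it was at -0.96 and short of the 2-fold limit. *Pax8*, a transcription factor of the tubule epithelium, was at 0.68 and was not called. After the median of ratios the values of *Cdh1* and *Pax8* lay below 0.

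**Figure D5:**
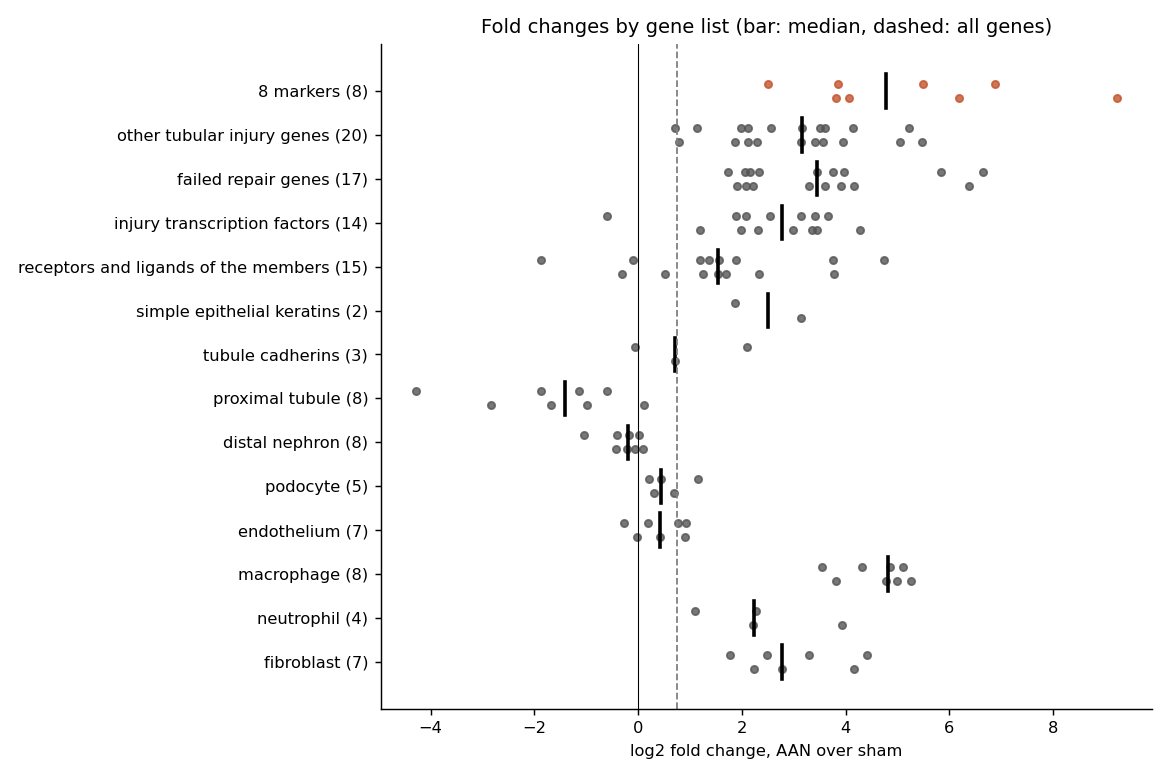
Log2 fold change, AAN over sham, of the tested genes of each list, with the number tested in parentheses. Points are genes, bars are medians, the dashed line is the median of all genes tested (0.75), and orange marks the 8 genes, whose median is 4.78.

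Other genes of tubular injury moved in the same direction. Of 20 listed, 18 were called higher and none lower, with a median log2 fold change of 3.15. *Cd44*, a hyaluronan and osteopontin receptor, rose by 5.48 (SE 0.26), from 0.0605 to 0.175 FPKM in sham mice to 5.54 to 13.0 in AAN mice. *S100a6*, a calcium-binding protein, rose by 5.22 (SE 0.51), and *Krt19*, a further type I keratin, by 5.05 (SE 0.38). *Krt7* at 0.70 and *Itgb6* at 0.79 were not called, and after the median of ratios *Krt7* was at -0.06. Beside the background of 35.8% the share called was 18 of 20, in a list chosen with earlier results of these data known.

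Of 17 genes tied to failed repair, among them NF-kB members and the chemokines that draw leukocytes, 17 were called higher, with a median of 3.44, beside 35.8% of all genes. *C3*, the central complement component, rose by 6.65 (SE 0.32), from 2.60 to 4.43 FPKM in sham mice to 175 to 646 in AAN mice. *Ccl2*, which draws monocytes, rose by 6.38 (SE 0.39), and *Cxcl1*, which draws neutrophils, by 5.84 (SE 0.42). *Cxcl1* was under 0.1 FPKM in every sham mouse and passed the filter only through AAN mice. The summed level of the 17 genes was 33.7 to 45.5 FPKM in the sham group and 410 to 1005 in the AAN group.

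Of 14 transcription factors linked to tubular injury, 13 were called higher, apart from *Sox9*, with a median of 2.77 and a background of 35.8%. *Sox11*, *Fosl1* and *Runx1* were under 0.1 FPKM in every sham mouse and passed the filter only through AAN mice. A count of 10 was called with a filter at 1 FPKM and of 11 after quantile normalization. The AP-1 subunit *Fosl1* rose by 4.27 (SE 0.38), from 0 to 0.0669 FPKM in sham mice to 0.784 to 4.02 in AAN mice. *Atf3*, a stress-induced factor, rose by 3.65 (SE 0.35), and *Nfkbiz*, an NF-kB cofactor, by 3.36 (SE 0.34). *Lhx1*, a factor of nephron formation, was at -0.61 with an adjusted p of 0.107 in the limma fit and was not called. Both SoxC factors on the list, *Sox4* at 2.55 and *Sox11* at 3.41, were called higher.

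Receptors and binding partners of the 8 genes were less uniform. Of 15 tested, 10 were called higher and 1 lower, with a median of 1.54, beside 35.8% and 3.43% of all genes. After quantile normalization 5 were called higher, beside 2537 of 17128 genes. A filter at 1 FPKM left 7, and *Timd4* and *Lrp8* had passed the lower filter only through their AAN values. *Trem2*, a macrophage receptor that binds clusterin, rose by 4.74 (SE 0.39). The *Vcam1*-binding integrin subunits *Itga4* and *Itgb7* rose by 3.78 (SE 0.21) and 3.77 (SE 0.23), with *Itga4* at 0.0809 to 0.245 FPKM in the sham group and 2.94 to 4.16 in the AAN group. *Lrp2*, the megalin receptor with which the proximal tubule takes up filtered lipocalin 2, fell by 1.87 on the log2 scale (SE 0.47, limma, adjusted p = 0.00447), with 46.1 to 189 FPKM in the sham group and 13.5 to 70.0 in the AAN group, groups that overlap. *Slc22a17*, another receptor described for lipocalin 2, was at -0.10 and was not called. *Timd4*, a relative and partner of *Havcr1*, was at 0 in all 4 sham mice and at most 0.338 FPKM in AAN mice.

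Genes whose pattern over the 10 mice was most like that of each gene were sought among 12245 genes. The measure was the Pearson correlation of deviations from the group means, so that the difference between these means played no part. How far each AAN mouse rose did remain in the deviations. The values are a description over 10 mice in which depth and tissue makeup vary from mouse to mouse for all genes at once, and the highest among so many genes are large by selection. *Spp1* was closest to *Pip4p1* (0.99), *Tmed9* (0.99) and *Csf1* (0.99), the last a growth factor for macrophages. *Havcr1* was closest to *Flnc* (0.97), *Col4a1* (0.97) and *Eif2s2* (0.95). *Lcn2* was closest to *Hsp90b1* (0.98), *Cd9* (0.98) and *Plp2* (0.97), and *Vcam1* to *Cdca8* (0.95), *Glmp* (0.94) and *Birc5* (0.93). For *Krt20*, *Psmc3ip* and *Lyz2* were both at 0.95. For *Sox9* they were *Pmaip1*, *5730409E04Rik* and *Foxn2*, at 0.96, 0.94 and 0.92. *Cdh6* was closest to *Nol6*, *Slc20a2* and *Mto1* (each 0.98), and *Clu* to *Gpt2*, *Clba1* and *Frk* (each 0.97). No gene appeared among the closest 3 of more than 1 of the 8 genes.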

How the data were processed

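Kidney cortex RNA of 4 sham and 6 AAN mice was sequenced as paired-end libraries. The authors mapped the reads with Hisat2 to mouse GRCm38 (mm10) and computed FPKM per gene model with Stringtie, and the deposited values are these FPKM, without counts. The authors tested with edgeR. It models counts and was not run on FPKM here, so limma 3.58.1 in R 4.3.3 (lmFit, eBayes with trend and robust) was fitted to log2(FPKM + 0.1). Genes averaging under 0.1 FPKM were left out, and the Benjamini-Hochberg adjustment of the two-sided p-values ran over the 17129 that remained. A call needed a 2-fold change as well as an adjusted p no higher than 0.05. Fold changes on this scale understate those of low genes. Single values per mouse were compared by exact permutation in Python 3.11.15, and the sum of a list covers its tested genes.

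Depth was recovered from low FPKM values of genes with 1 annotated transcript, which were whole fragments within a tolerance of 0.05 in 94.6% to 96.9% of cases. Gene positions came from GENCODE release 21. How fragments shared between overlapping genes were divided, and whether strand was used, is not given in the sources used here. Where both libraries of a pair in a group had a value above 0, no gene had the same value in both. The methods state that controls were littermates, without saying which mice share a litter, so litters were not modelled. The p-values treat the mice as independent, and those of limma set the group difference against the spread between these mice.

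The 8 genes and all lists were chosen with earlier results of these data known. Named genes were the 8, the 3 with the largest rise and 2 with the largest fall among called members of each of 4 related lists (mean of at least 1 FPKM), all members of the 3 family lists, and the 3 genes most like each of the 8. Other genes were named after their values were seen. *Krt8*, *Krt18*, *Lrp2* and *Cdh16* each stand in 2 lists. The marker *Mpo* was not analysed here. Of the genes the rule names and of the 8 differences within mice, some are not reported here. The alternatives used a pseudocount of 1 or 0.01, no filter or one at 1 FPKM, median of ratios, quantile normalization, no trend or robust fit, no fold limit, each mouse left out, and B-tagged mice alone (3 sham, 5 AAN).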

Additional observations from a re-analysis of the deposited data

Results flagged for a closer look

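A mouse was examined more closely where its gap to the nearest mouse of its group, over the range of the group, passed the 95% critical value of Dixon. This was so for 7 of the 62 groups of values examined, where chance gives about 3.1. None of the FPKM values of the 8 genes was among them. AAN mouse B614 accounted for 5. Its mean log2(FPKM + 0.1) was 6.59 for the proximal tubule list, against 4.31 to 5.02 in the other AAN mice, 7.38 for the distal nephron list, against 5.26 to 6.00, and 5.91 for *Krt8* and *Krt18*, against 7.08 to 7.46. *Havcr1* minus the proximal tubule list was -1.12 in B614, against 1.25 to 2.60, and *Lcn2* minus the distal nephron list was -3.69, against -0.90 to 0.40. In sham mouse B607 *Lcn2* minus the distal nephron list was -8.85, against -7.54 to -7.29. AAN mouse B639 had the lowest depth, 13.4 M fragments, against 15.5 to 16.5 M. Causes of these values were not tested.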

How the results depend on the processing

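All 8 genes kept their direction and their call in 19 of 19 alternatives, with the highest adjusted p at 0.000277 (*Cdh6*). The log2 fold changes ran from 6.28 to 11.2 for *Havcr1*, 5.05 to 7.33 for *Lcn2*, 4.67 to 5.62 for *Vcam1*, 3.84 to 7.48 for *Krt20*, 2.12 to 4.73 for *Sox9*, 2.06 to 4.56 for *Cdh6*, 3.09 to 4.07 for *Spp1* and 1.74 to 2.69 for *Clu*. The pseudocount of 1 gave the lowest value for 6 of them, and the median of ratios for *Spp1* and *Clu*. Receptors and ligands called higher numbered 5 after quantile normalization, in place of 10. *Spp1* minus macrophage changed sign to 0.042 after quantile normalization, and no other of the 8 differences within mice lost its call. In leaving out single mice, exact tests of those differences can reach no lower than 0.00794 or 0.0119. Genes near the level of 3 fragments in sham mice, chiefly *Havcr1*, have fold changes limited by depth. No paired analysis was possible because no replicate number occurs in both groups.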
